A study of Mus musculus with 4 samples.

Results

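Small leucine-rich proteoglycans are secreted core proteins built of leucine-rich repeats, and 9 of their genes are described here: Bgn (biglycan), Aspn (asporin), Dcn (decorin), Lum (lumican), Fmod (fibromodulin), Ogn (osteoglycin), Omd (osteomodulin), Prelp (prolargin) and Ecm2. All 9 were among the 21090 genes of the deposited expression table, 8 were above 0 in at least 1 library, and 6 reached a mean of 1 RPKM (reads divided by gene length in kilobases and by the library's reads). The family was selected on its difference between S100a4 knockout and control lines, with Bgn and Aspn strongly lower in both knockouts, so that difference is given below with its standard error (SE) and without a test. The 4 libraries, 1 per line, were bulk RNA-seq profiles of mouse mammary tumor cells. The line came from a primary tumor, with lung metastasis, of a mouse in which Cre under the MMTV promoter switches on mutant alleles of Pik3ca (H1047R) and Trp53 (R270H), and the study states that this line was the source of the knockout lines. Controls were the parental line and its vector control. Knockouts were 2 lines in which S100a4 had been edited, 1 at exon 3 and 1 at exon 2, with lentivirus carrying Cas9 and a guide RNA and then puromycin, and whether a line was a single clone is not stated. Sample titles number the cells 307, except for the exon 2 knockout, which has 308. The age of the mouse and the treatment of the cells at harvest are not used here.

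These core proteins sit on collagen fibrils, where they control fibril diameter and spacing, and they hold growth factors such as TGF-beta in the matrix. Bgn and Dcn belong to class I of the family and carry chains of chondroitin or dermatan sulfate. Aspn is their relative with a run of aspartates in place of the chains. Lum, Fmod, Omd and Prelp belong to class II, several of which carry keratan sulfate, and Ogn belongs to class III. Ecm2 shares the repeats and lies beside Aspn in the genome. In most tissues fibroblasts, bone cells and cartilage cells are the main source, and soluble Bgn also signals to innate immune receptors.

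The libraries were scaled to between 22472024 and 31235456 reads, as worked out from the steps of the RPKM values. S100a4 itself was at 3576 RPKM in parental cells, 4741 in vector control cells, 1136 in exon 3 knockout cells and 1105 in exon 2 knockout cells. Its difference was -1.88 on the log2(RPKM + 1) scale (SE 0.311, limma adjusted p = 0.0731), and transcripts remained in both knockouts. The study reports truncating mutations in most S100a4 transcripts of the knockout lines, and loss of the protein on Western blot. Krt8 and Krt18 were the markers above a mean of 1 RPKM among 9 of mammary epithelium, and Epcam lay between 0.304 and 0.657 RPKM. The 9 summed to between 34.4 and 129.9 RPKM, with the lowest sum in the vector control. Of 12 fibroblast markers 6 reached that mean. The summed level of the 12 was 366 RPKM in parental cells and 117 in vector control cells. It was 145 in exon 3 knockout cells and 173 in exon 2 knockout cells, so the groups overlapped. Postn alone was 238, 37.9, 62.4 and 87.9 RPKM in this order. Among the 6, 2 were lower in both knockouts than in both controls and 0 higher, beside 31.2% and 21.9% of all genes that reached that mean. Pdgfra was at 4.25 and 2.71 RPKM in the knockouts against 7.13 and 6.02 in the controls. Dpt was at 0.422 and 0.294 against 2.85 and 1.62. The groups overlapped for Postn, Pdgfrb, Cd34 and Fbln1. In parental, vector control, exon 3 and exon 2 knockout cells, Pdgfrb was at 76.1, 56.8, 64.0 and 57.4 RPKM. Cd34 was at 37.1, 13.2, 12.15 and 20.45, and Fbln1 at 2.36, 1.48, 1.72 and 3.62. Mfap5 was at 0 in all 4 libraries. The summed level of 9 bone and cartilage markers, with Ibsp at 0 in all 4, was 1187, 322, 312 and 669 RPKM in the same order, of which Spp1 alone was 1111, 268, 257 and 622. Alpl was higher in both knockouts, at 6.78 and 13.8 RPKM, than in both controls, at 2.93 and 0.299, and Sox9 was lower in both, at 40.3 and 25.6 against 46.99 and 46.5. Acan was also lower in both, at 1.41 and 0.895 against 14.0 and 1.54. The summed level of 4 pericyte markers lay between 2.11 and 3.30 RPKM. The 4 endothelial markers summed to between 0.186 and 0.443 RPKM. Of 7 immune marker symbols, with Emr1 and Adgre1 naming the same gene, 6 were in the table and 1 reached a mean of 1 RPKM. Their summed level was 4.93 and 3.55 RPKM for the controls against 11.6 and 13.2 for the knockouts. Cd3e and Emr1 were at 0 in all 4 libraries and Ptprc did not exceed 0.0101 RPKM, while Cd68 was higher in both knockouts, at 11.5 and 13.2 RPKM, than in both controls, at 4.92 and 3.36. The part of any of these in the proteoglycan values was not tested. In bulk libraries, fewer cells of a type and less RNA per cell cannot be told apart.

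Aspn, Omd, Ogn and Ecm2 are neighbors on 1 strand of chromosome 13, while Bgn is on the X chromosome. The 250 bases before the annotated start of the 4 genes that were lower in both knockouts are shown because these genes share a direction, so that their start regions can be read side by side. They are RefSeq sequences in build GRCm38.p6, printed 5′ to 3′ on the plus strand, which is the strand of all 4 genes. Capitals mark matches, on either strand, to 4 motifs, which are the core promoter element TATAAA, the binding letters of Sp1 proteins GGGCGG, the element CCAAT and the letters bound by AP-1 proteins, TGANTCA with N for any base.
Bgn, chrX:73483351-73483600: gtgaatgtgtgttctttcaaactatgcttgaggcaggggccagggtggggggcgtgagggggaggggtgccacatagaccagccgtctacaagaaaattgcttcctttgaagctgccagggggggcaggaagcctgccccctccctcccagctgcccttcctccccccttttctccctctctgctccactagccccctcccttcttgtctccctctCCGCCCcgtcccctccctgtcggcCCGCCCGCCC
Aspn, chr13:49544193-49544442: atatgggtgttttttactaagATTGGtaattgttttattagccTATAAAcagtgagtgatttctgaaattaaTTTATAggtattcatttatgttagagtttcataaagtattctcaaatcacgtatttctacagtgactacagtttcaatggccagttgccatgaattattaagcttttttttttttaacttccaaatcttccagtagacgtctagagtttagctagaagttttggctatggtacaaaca
Omd, chr13:49582212-49582461: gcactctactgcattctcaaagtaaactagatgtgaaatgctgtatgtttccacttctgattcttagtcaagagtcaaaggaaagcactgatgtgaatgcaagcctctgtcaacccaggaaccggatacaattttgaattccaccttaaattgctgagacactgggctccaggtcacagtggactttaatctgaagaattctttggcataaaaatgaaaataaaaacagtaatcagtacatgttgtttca
Ogn, chr13:49607765-49608014: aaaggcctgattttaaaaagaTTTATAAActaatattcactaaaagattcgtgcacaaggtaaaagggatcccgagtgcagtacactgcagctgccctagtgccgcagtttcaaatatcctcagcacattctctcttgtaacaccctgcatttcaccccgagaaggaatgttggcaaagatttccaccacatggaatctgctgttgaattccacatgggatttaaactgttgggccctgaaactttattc
Bgn had 3 matches to GGGCGG, the last 2 of which overlap, and none to the other motifs, and 64.4% of its 250 bases were G or C. Aspn had 2 matches to TATAAA and 1 to CCAAT at 30.0% GC, and Ogn had 2 matches to TATAAA, which overlap because the same letters read on both strands, at 42.0% GC. Omd had no match to any of the 4 motifs at 38.4% GC. Among 32851 promoters of the same length, 12.4% held TATAAA, 32.7% GGGCGG, 33.8% CCAAT and 6.75% TGANTCA, and the median GC content was 52.4%. RefSeq start regions were matched for 7 of the 9 members, all but Dcn and Lum. A match is a description of letters, and no match says only that these letters are not in this window.

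Bgn, a class I proteoglycan of bone, skin and tumor stroma, was the most abundant member in the controls. On the log2(RPKM + 1) scale it had the largest difference of the 6 above the filter. That rank depended on the scale. With a pseudocount of 0.1 the difference was -4.37 for Bgn and -4.38 for Aspn, and with voom on whole reads -4.37 and -4.98. Bgn lies at chrX:73483602-73495933 on the plus strand (GRCm38). Its level was 264 RPKM in parental cells and 375 in vector control cells, against 8.15 in exon 3 knockout cells and 28.1 in exon 2 knockout cells, from 9539, 10990, 221 and 730 reads. Both knockouts were far below both controls, and each 95% Poisson interval, which covers counting error only, lay apart from the other 3, with 7.11 to 9.30 RPKM in exon 3 knockout cells and 26.1 to 30.2 in exon 2 knockout cells. By RPKM the gene ranked 231st and 165th in the controls and 6933rd and 3639th in exon 3 and exon 2 knockout cells. The control mean was 320 ± 78.0 RPKM (SD, n = 2) and the knockout mean 18.1 ± 14.1 (SD, n = 2), so the knockouts held 5.68% of the control level. The difference on the log2(RPKM + 1) scale was -4.27 (SE 0.467), and it ran from -3.19 to -5.36 over the 4 pairs of a knockout and a control. The vector control exceeded the parental line 1.42-fold (95% exact interval 1.38 to 1.46, a comparison of these libraries), and the exon 2 knockout exceeded the exon 3 knockout 3.45-fold (2.96 to 4.03).

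**Figure D1:**
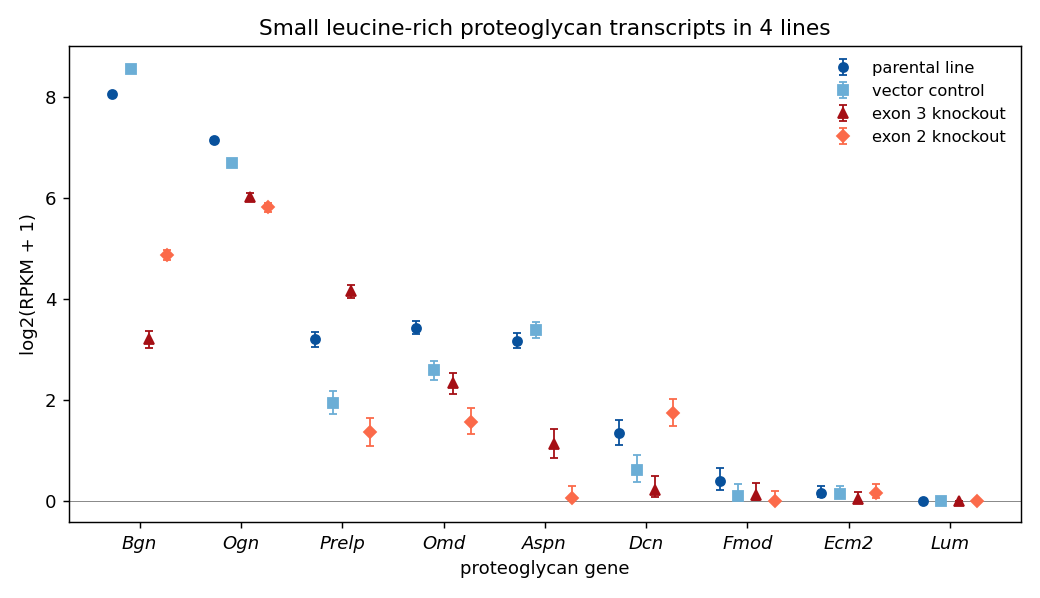
Level of each of the 9 proteoglycan genes on the log2(RPKM + 1) scale (y axis) in parental cells, vector control, exon 3 knockout and exon 2 knockout, with bars for the 95% Poisson interval of the reads behind each point. Bgn sits at 264 and 375 RPKM in the controls and at 8.15 and 28.1 in the knockouts, Prelp is highest in exon 3 knockout cells, and Lum is at 0 in all 4.

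Aspn, which binds collagen and TGF-beta, was the other member that was at least 2-fold lower in every pair. It lies at chr13:49544443-49567565 on the plus strand. Its level was 7.99 RPKM in parental cells, 9.41 in vector control cells, 1.18 in exon 3 knockout cells and 0.0397 in exon 2 knockout cells, from 280, 268, 31 and 1 reads. The controls were close together, and the knockouts were apart from them and from each other. The ratio of vector control to parental line was 1.18 (95% exact interval 0.992 to 1.40), which includes 1, while the exon 3 knockout exceeded the exon 2 knockout 29.7-fold with an interval of 4.95 to 1209, set by the single read in exon 2 knockout cells. The control mean was 8.70 ± 1.0 RPKM (SD, n = 2) and the knockout mean 0.608 ± 0.804 (SD, n = 2), or 6.99% of the control mean. The log2(RPKM + 1) difference was -2.68 (SE 0.421), and the pairs ran from -2.05 to -3.32. Bgn and Aspn thus differed in which knockout held less. Bgn was lower in the exon 3 line and Aspn was lower in the exon 2 line.

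Ogn, a class III member first known from bone, was the second most abundant of the 9. It lies at chr13:49608046-49624501 on the plus strand. Its level was 140 RPKM in parental cells, 102 in vector control cells, 63.5 in exon 3 knockout cells and 55.0 in exon 2 knockout cells, from 3920, 2331, 1337 and 1109 reads. The order placed both knockouts below both controls. The control mean was 121 ± 26.6 RPKM and the knockout mean 59.3 ± 6.0 (SD, n = 2 each), and the log2(RPKM + 1) difference was -1.01 (SE 0.306). The gap between the controls themselves was -0.45 on that scale, and the vector control held 0.731 of the parental level (95% exact interval 0.695 to 0.770).

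Omd, a class II member of mineralizing tissue that carries keratan sulfate, lies between Aspn and Ogn at chr13:49582462-49592822 on the plus strand. Its level was 9.77 RPKM in parental cells, 4.98 in vector control cells, 4.02 in exon 3 knockout cells and 1.96 in exon 2 knockout cells, from 388, 161, 120 and 56 reads. The knockouts were below the controls, but the exon 3 knockout and the vector control were close, with a ratio of 0.806 and a 95% exact interval of 0.631 to 1.03 that includes 1. The log2(RPKM + 1) difference was -1.06 (SE 0.415), and the single pairs ran from -0.25 to -1.86. The vector control differed from the parental line by -0.85, which is more than that smallest pair. Ecm2, the fourth gene of the chromosome 13 group at chr13:49504810-49532789 on the plus strand, was at 0.111, 0.0978, 0.0212 and 0.111 RPKM in parental cells, vector control, exon 3 knockout and exon 2 knockout, from 7, 5, 1 and 5 reads. At this depth no difference between its libraries was detectable.

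Of the 6 members above the filter, 4 (Bgn, Aspn, Ogn and Omd) were lower in both knockouts than in both controls and 0 were higher in both. Among all 10871 tested genes, 31.2% were lower and 21.9% higher in that sense. Bgn and Aspn were at least 2-fold lower in all 4 pairs, as were 1.73% of tested genes. The limma test called 0.0184% of tested genes lower at an adjusted p under 0.05, or 2 genes, and called no gene higher, with 1498 lower and 578 higher at an unadjusted p under 0.05. The rule used this contrast, so no call is given for a member and nothing is read from these counts about the family. The median log2(RPKM + 1) difference of the 6 members was -1.03, beside -0.08 over all tested genes.

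**Figure D2:**
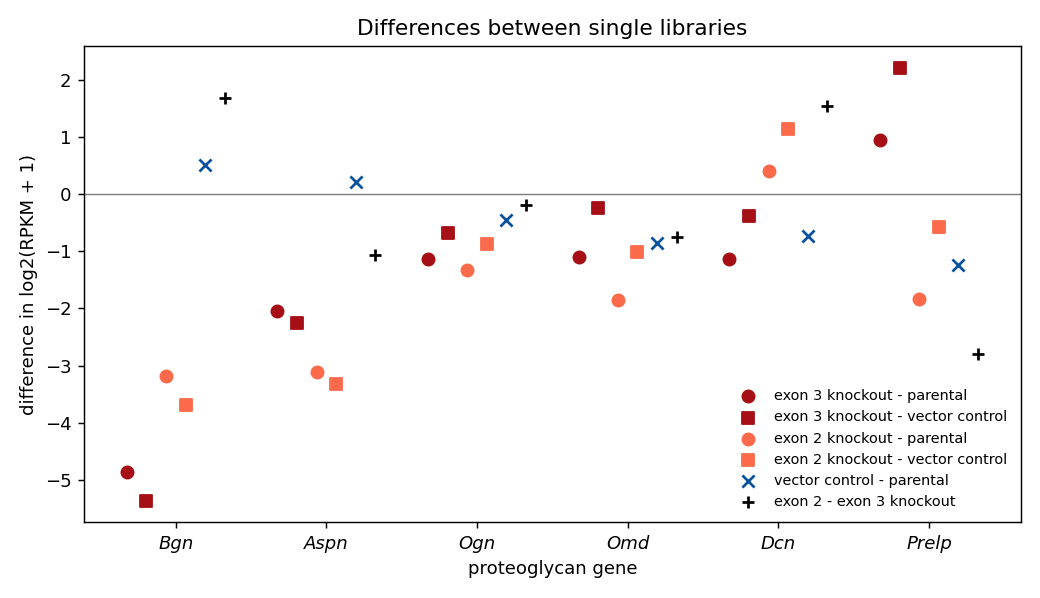
Differences in log2(RPKM + 1) (y axis) between single libraries for the 6 proteoglycans above the filter, with knockout minus control pairs in red and orange, vector control minus parental line in blue and exon 2 minus exon 3 knockout in black. All 4 pairs lie below 0 for Bgn, Aspn, Ogn and Omd, and on both sides of 0 for Dcn and Prelp.

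The GC content of a coding sequence moved with the difference between knockouts and controls over all genes, and the members differ in GC content. In the lowest of 8 equal groups of genes by GC content, from 33.33% to 45.28%, the median log2(RPKM + 1) difference was -0.68 and 68.7% of genes were lower in both knockouts. Aspn (38.4% GC), Ogn (38.5%) and Omd (35.8%) are in that group. Bgn, at 53.3% GC, is in a group whose median difference was 0.06 and in which 21.6% of genes were lower in both knockouts. After correction of each library for GC content and coding length, the difference was -4.44 (SE 0.501) for Bgn and -2.13 (SE 0.458) for Aspn, and both knockouts stayed below both controls for these genes. For Ogn it became -0.48 (SE 0.337) and for Omd -0.43 (SE 0.467), and for both genes the exon 3 knockout then lay above the vector control, so the groups overlapped. The corrected log2 levels of Ogn were 7.03 in parental cells, 6.28 in vector control cells, 6.43 in exon 3 knockout cells and 5.91 in exon 2 knockout cells.

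**Figure D3:**
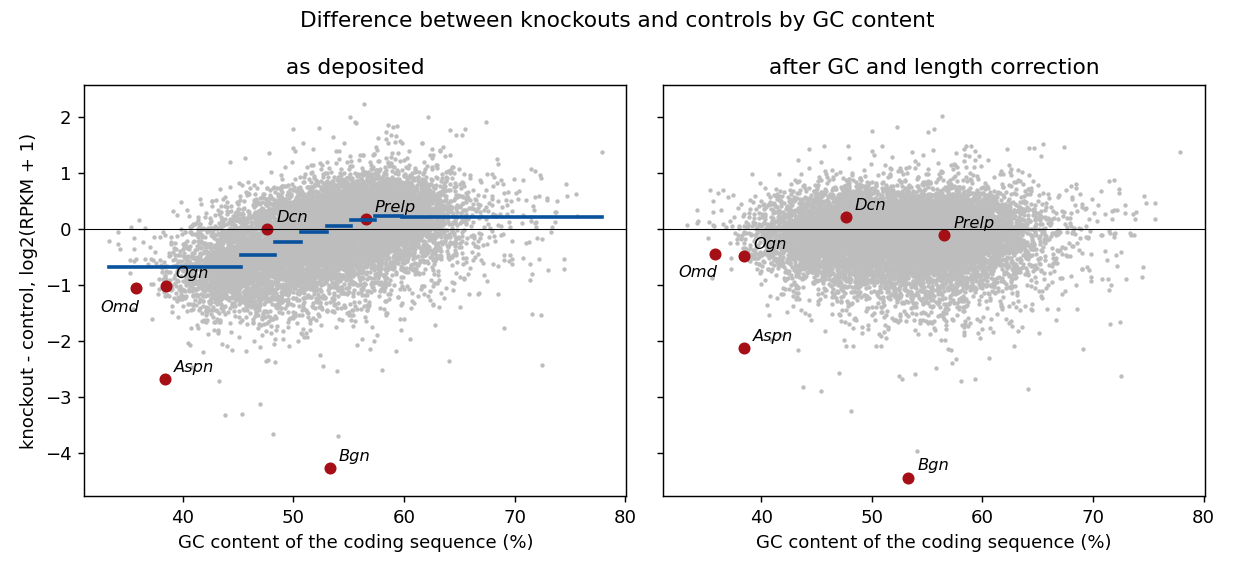
Difference between knockouts and controls in log2(RPKM + 1) (y axis) against GC content of the coding sequence in percent (x axis), as deposited (left) and after correction for GC content and length (right), with tested genes in grey, the 6 proteoglycans in red and blue lines for the median of each of 8 groups by GC content. Ogn and Omd lie near the line of their group, whose median is -0.68, and Bgn and Aspn lie far below theirs.

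Dcn and Prelp were the members on which the knockouts disagreed. Dcn, the closest relative of Bgn, was at 1.53 RPKM in parental cells, 0.518 in vector control cells, 0.160 in exon 3 knockout cells and 2.34 in exon 2 knockout cells, from 51, 14, 4 and 56 reads. The exon 3 knockout was below both controls and the exon 2 knockout was above both. The ratio of exon 3 knockout to vector control was 0.309 (95% exact interval 0.0741 to 0.984). After the correction for GC content and length, the log2 levels of Dcn were 1.35, 0.39, 0.40 and 1.76 in the same order. The exon 3 knockout was then no longer below the vector control. The exon 2 knockout exceeded the exon 3 knockout 14.6-fold (95% exact interval 5.40 to 55.5), while the exon 2 knockout and the parental line differed 1.53-fold (1.03 to 2.28). Its mean over the 4 libraries, 1.14 RPKM, was just above the filter, and the next member, Fmod at 0.114, was well under it. The gene lies at chr10:97479609-97518143 on the plus strand.

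Prelp, a class II member that anchors basement membranes to connective tissue, showed the opposite order. It lies at chr1:133910304-133921414 on the minus strand. Its level was 8.15 RPKM in parental cells, 2.84 in vector control cells, 16.7 in exon 3 knockout cells and 1.57 in exon 2 knockout cells, from 304, 86, 468 and 42 reads. The exon 3 knockout was above both controls and the exon 2 knockout was below both. The exon 3 knockout exceeded the exon 2 knockout 10.7-fold (95% exact interval 7.77 to 15), and it exceeded the parental line 2.05-fold (1.77 to 2.37). Between knockouts and controls the log2(RPKM + 1) difference was 0.19 (SE 0.724) for Prelp and 0.01 (SE 0.525) for Dcn, both smaller than their SE.

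Among all tested genes, 7.88% had the knockouts on opposite sides of both controls, and of the 6 members these were Dcn and Prelp. Aspn and Prelp were at least 2-fold lower in the exon 2 than in exon 3 knockout cells, as were 2.43% of tested genes. Bgn and Dcn were at least 2-fold higher in exon 2 knockout cells, as were 2.57%. Between the controls, Prelp was at least 2-fold lower in vector control cells than in parental cells, as were 5.19% of tested genes. Each of these counts sets 1 library against another, so the differences have no replicate check.

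Fmod and Lum, class II members that regulate fibril assembly, were at or near 0. Fmod (chr1:134037254-134048277, plus strand) was at 0.311 RPKM in parental cells, 0.0696 in vector control cells and 0.0753 in exon 3 knockout cells, from 11, 2 and 2 reads. It was at 0 in exon 2 knockout cells, where 3 reads, the limit that a count of 0 allows, would be 0.118 RPKM. Lum (chr10:97565128-97572703, plus strand) was at 0 in all 4 libraries.

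Since RPKM is scaled by gene length, levels can be summed over the family. The sum of the 9 genes was 432 RPKM in parental cells, 495 in vector control cells, 93.8 in exon 3 knockout cells and 89.2 in exon 2 knockout cells. The controls lay close together in this sum and so did the knockouts, with 464 ± 44.4 RPKM against 91.5 ± 3.28 (SD, n = 2 each), and the knockouts held 19.7% of the control sum. Bgn made up 61.2% of the sum in parental cells and 75.7% in vector control cells, against 8.69% in exon 3 knockout cells and 31.6% in exon 2 knockout cells. Ogn was the leading member in both knockouts, at 67.7% and 61.7% of the sum. Prelp made up 17.8% in exon 3 knockout cells. Without Bgn the sum was 168, 120, 85.7 and 61.0 RPKM in parental cells, vector control, exon 3 knockout and exon 2 knockout, and the knockouts held 50.9% of the control sum. Most of this remaining sum was Ogn, at 140, 102, 63.5 and 55.0 RPKM in the same order. The groups overlapped for Ogn after the correction for GC content and length.

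**Figure D4:**
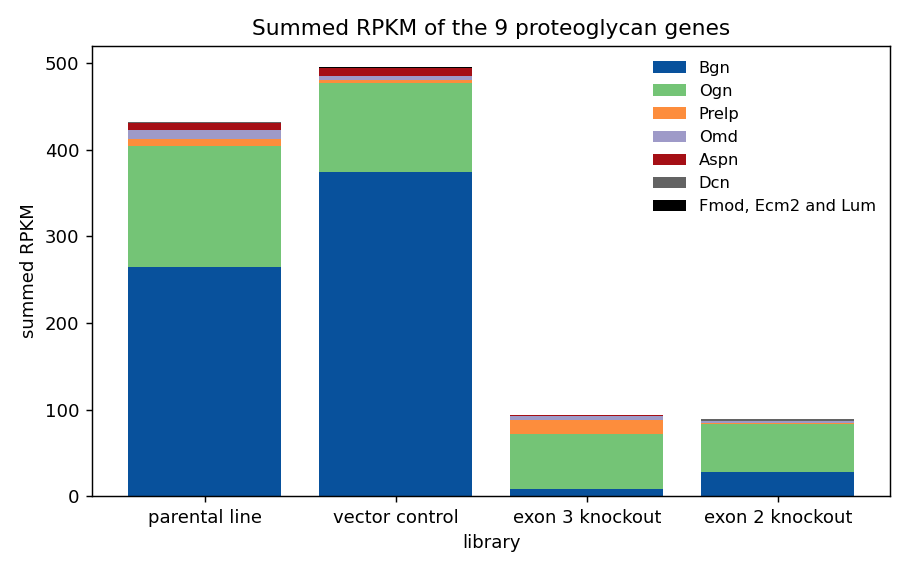
Summed RPKM of the 9 proteoglycan genes (y axis) in each of the 4 libraries, with 1 color per gene. The sum is 432 and 495 RPKM in the controls and 93.8 and 89.2 in the knockouts, where Ogn and not Bgn is the largest part.

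The genes whose pattern over the 4 libraries was most like that of Bgn were Il1rl1, Cdh13, Slc5a3, Gbp7 and Sprr1a, by the root mean square difference between log2(RPKM + 1) profiles centered on their own means, which was 0.986 for Il1rl1 and 1.15 for Sprr1a. Aspn came 16th, at 1.26. For Aspn the nearest were Ankrd44 and Il1rl1, at 0.333 each, then Gm13889, Nrep and Syt13, at up to 0.457. Il1rl1, the receptor of interleukin 33, was at 12.8 RPKM in parental cells, 14.9 in vector control cells, 0.934 in exon 3 knockout cells and 0.154 in exon 2 knockout cells. In likeness to Aspn, Omd came 404th and Ogn 473rd among the 10871 tested genes, and both lie in its chromosome 13 group. Dcn came 9427th and Prelp 9240th. This distance depends on the size of the differences as well as on their order.

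The nearest tested genes around Bgn and the chromosome 13 group did not pass the limma test, and neighbors of the other members were not examined. The nearest tested genes to Bgn differed by -0.28 (Zfp275), 0.06 (Haus7), -0.07 (Dusp9) and 0.56 (Pnck) on the log2(RPKM + 1) scale, and the nearest of these, Haus7, lies 24558 bases away. After the correction for GC content and length the differences were -0.56, 0.01, -0.39 and 0.28. The chromosome 13 group spans 119692 bases. Beside it, Ippk differed by -0.06, Nol8 by -0.59 and Iars by -0.23, and by 0.01, 0.16 and 0.17 after the correction. Cenpp, a centromere gene on the minus strand, runs across the whole group. It was at 6.92 RPKM in parental cells, 8.60 in vector control cells, 3.56 in exon 3 knockout cells and 11.9 in exon 2 knockout cells, so its order differed from that of Aspn. Whether reads were counted by strand is not given in the sources used here, so reads of overlapping genes on opposite strands could not be told apart.

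The enzymes that build the chains of these proteins were mixed in direction. Of 22 genes of chondroitin and dermatan sulfate synthesis, 19 were tested, 7 were lower and 5 higher in both knockouts than in both controls, beside 31.2% lower and 21.9% higher over all tested genes, and the median log2(RPKM + 1) difference was -0.20 (-0.23 after the correction for GC content and length). None passed the limma test. At an unadjusted p under 0.05, 3 were lower and 0 higher, beside 1498 lower and 578 higher of all 10871 tested genes. Csgalnact1, which adds the sugar that starts a chondroitin chain, was at 4.18 RPKM in parental cells, 1.01 in vector control cells, 0.134 in exon 3 knockout cells and 0.0279 in exon 2 knockout cells, a difference of -1.58 (SE 0.484, limma adjusted p = 0.147). Csgalnact2, its paralog, differed by -0.85 (limma adjusted p = 0.273), and Dse, which turns chondroitin into dermatan sulfate, by -0.84 (limma adjusted p = 0.231), and after the correction these were -0.43 and -0.46. The highest differences were 0.54 for B4galt7, an enzyme of the linkage region, 0.50 for Ust and 0.45 for Xylt2, which became 0.17, 0.30 and 0.27. Of 6 genes of keratan sulfate synthesis, 4 were tested, and all 4 overlapped between the groups. B4galt4 differed by 1.16 (SE 0.554, limma adjusted p = 0.280), with 18.8 RPKM in parental cells, 3.42 in vector control cells, 17.7 in exon 3 knockout cells and 22.3 in exon 2 knockout cells, so the vector control stood apart. Chst1, B4galt1 and Chst2 differed by -0.32, -0.18 and -0.04, and by -0.63, -0.40 and -0.32 after the correction.

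Of 10 genes for enzymes that process the core proteins and their enhancers, 6 were tested, 2 were lower and 2 higher in both knockouts (31.2% and 21.9% over all tested genes), and none passed the limma test. At an unadjusted p under 0.05, 1 was lower and 0 higher, beside 1498 lower and 578 higher of all 10871 tested genes. Adamts4, a protease that cuts proteoglycans, was at 16.1 and 11.7 RPKM in parental and vector control cells and at 5.27 and 2.75 in exon 3 and exon 2 knockout cells, a log2(RPKM + 1) difference of -1.60 (SE 0.371, limma adjusted p = 0.105). Mmp14 and Bmp1, the proteinase that removes the propeptide of Bgn, differed by -0.21 and -0.11, and by -0.41 and -0.21 after the correction. Pcolce and Pcolce2, which enhance procollagen processing, differed by 0.75 (SE 0.369, limma adjusted p = 0.289) and 0.60 (SE 0.334, limma adjusted p = 0.344), and Adamts5 by 0.39, with Pcolce at 0.46 after the correction.

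The collagens and other matrix partners of these proteins had negative differences in 11 of 12 tested genes of 17 listed, with a median log2(RPKM + 1) difference of -0.67, where 5974 of all 10871 tested genes were negative. They were lower in both knockouts than in both controls in 3 of the 12 genes, against 31.2% of all tested genes, and none passed the limma test. At an unadjusted p under 0.05, 3 were lower and 0 higher, beside 1498 lower and 578 higher of all 10871 tested genes. The controls differed in these genes too. All 12 were lower in vector control cells than in parental cells, 11 of them at least 2-fold, and the median difference between the controls was -1.32. Col1a1, a chain of the main fibril collagen, was at 670 RPKM in parental cells and 6.93 in vector control cells. Col3a1, the fibril collagen of soft tissue, was at 133 and 57.9 RPKM in parental and vector control cells and at 15.2 and 23.9 in exon 3 and exon 2 knockout cells, a difference of -2.14 (SE 0.407, limma adjusted p = 0.0957). Col12a1 and Col5a2, which sit on or in fibrils, differed by -1.15 (limma adjusted p = 0.216) and -1.13 (limma adjusted p = 0.209), and by -0.52 and -1.09 after the correction. Fn1, Col5a1 and Thbs1 differed by 0.25, -0.18 and -0.19, with Fn1 at 0.49 after the correction. Col3a1 is a gene the study itself picked from these libraries, as are Bgn, Met, Tgfb2, Itgb1 and Wisp1, so their direction is not independent evidence.

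Of 22 growth factors and receptors that bind these proteins, 17 were tested, 7 were lower and 2 higher in both knockouts (31.2% and 21.9% over all tested genes), and the median log2(RPKM + 1) difference was -0.59, or -0.29 after the correction. None passed the limma test. At an unadjusted p under 0.05, 6 were lower and 0 higher, beside 1498 lower and 578 higher of all 10871 tested genes. Met, the receptor of hepatocyte growth factor, was at 34.4 and 28.9 RPKM in parental and vector control cells and at 9.02 and 14.7 in exon 3 and exon 2 knockout cells, a difference of -1.37 (SE 0.336, limma adjusted p = 0.105) that became -0.79 after the correction. Tgfb2, a ligand held by Dcn and Bgn, differed by -1.21 (SE 0.370, limma adjusted p = 0.148). Cd14, a co-receptor of the innate immune receptors that Bgn engages, differed by -1.11 (SE 0.488, limma adjusted p = 0.250), with 34.5 RPKM in vector control cells and between 7.15 and 9.42 in the other 3 libraries. Bmp4, P2rx7 and P2rx4 differed by 0.73, 0.40 and 0.31, and by 0.47, 0.31 and 0.12 after the correction.

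Of 14 other proteoglycans of matrix and cell surface, 4 were tested and none passed the limma test. At an unadjusted p under 0.05, 2 were lower and 0 higher, beside 1498 lower and 578 higher of all 10871 tested genes. Acan, the large proteoglycan of cartilage, was at 14.0 RPKM in parental cells, 1.54 in vector control cells, 1.41 in exon 3 knockout cells and 0.895 in exon 2 knockout cells, so 3 libraries lay close together and the parental line stood apart (difference -1.53, SE 0.650, limma adjusted p = 0.238). Vcan differed by -1.03 (SE 0.446, limma adjusted p = 0.246) and by -0.11 after the correction for GC content and length. Hspg2 and Agrn, of basement membranes, differed by -0.54 and 0.15, with Hspg2 at -0.30 after the correction. Of 9 further members of the leucine-rich proteoglycan family, 7 were above 0 and 2 were tested. Podnl1 differed by 0.33 and Tsku by 0.42 (SE 0.318, limma adjusted p = 0.478), which became 0.05 and 0.06, and Kera and Epyc were at 0 in all 4 libraries.

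**Figure D5:**
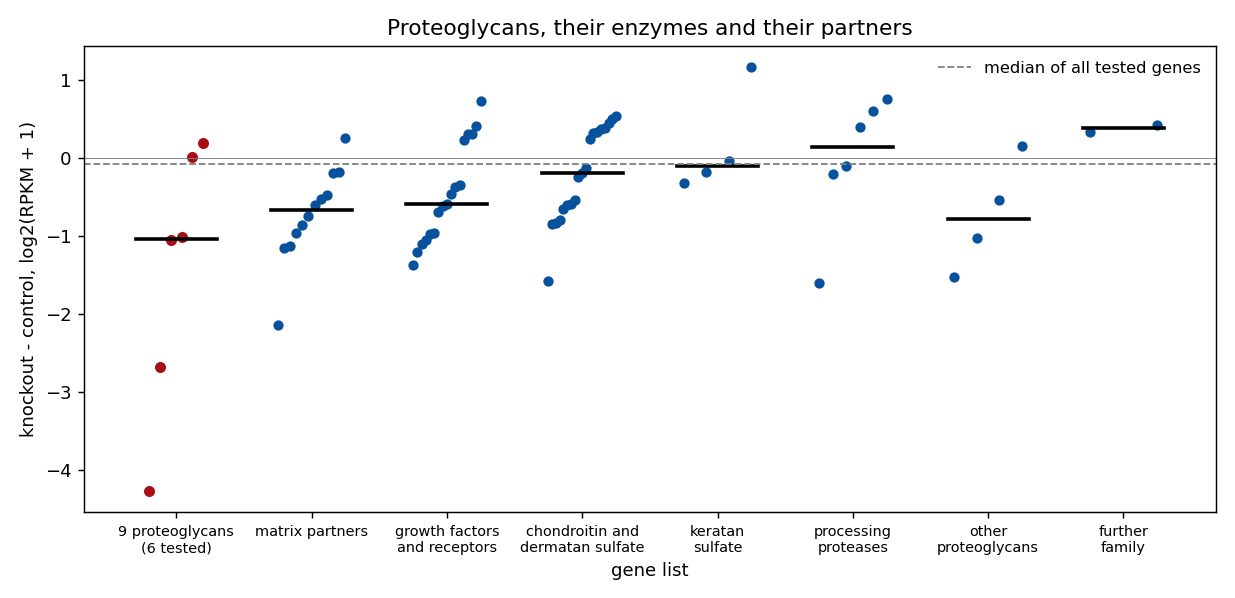
Difference between knockouts and controls in log2(RPKM + 1) (y axis) for each tested gene of the proteoglycans (red) and of 7 lists of their enzymes, partners and relatives (blue), with black lines for list medians and a dashed line for the median of all tested genes, -0.08. Bgn is the lowest point at -4.27, and the medians of the matrix partners and of the growth factors and receptors are -0.67 and -0.59.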

How the data were processed

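The authors deposited RPKM values, which are reads divided by gene length and by the library's reads, on a linear scale in 4 columns. The submitters' processing notes name CASAVA 1.8, GSNAP and GRCm38, and the gene model, strand setting and counting rule are not given in the sources used here. A stranded total RNA kit is named in the labels, but an RNA preparation kit without those words in the methods. All 4 columns were matched to a library by label. Groups came from the sample titles. Each library is 1 line, so p-values measure the spread between lines of a group.

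Whole reads were recovered from the ratios of RPKM values between libraries. Of 15405 genes above 0, 100% gave whole numbers within 0.001 reads. The absolute scale of reads rests on annotated coding lengths. An annotated length was matched for 8940 genes. For Prelp the reads were brought to the multiple nearest its annotated length. For Bgn no annotated length was matched and the smallest whole reads were used. They give a length of 1155 bases beside an annotated coding length of 1110. Poisson intervals and exact (Clopper-Pearson) intervals of read ratios, at 95%, cover counting error only.

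Values were analyzed as log2(RPKM + 1), which understates changes of low genes. Genes with mean RPKM of at least 1 (10871) were tested with limma 3.58.1 (R 4.3.3) with a trend, knockouts against controls, with Benjamini-Hochberg adjustment, 2-sided, at 0.05. With 2 libraries against 2, an exact permutation test cannot go below p = 0.333. GC content and coding length were corrected with natural splines (4 degrees of freedom) in 10773 genes. Alternatives were another pseudocount, scalings, filters, limma settings, voom on whole reads and leaving out each library.

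The members and lists were chosen with earlier results of these data known. Named genes were the 9 members, S100a4, up to 3 tested genes with the lowest and 3 with the highest difference in each list, the 5 genes most like Bgn and Aspn, and the nearest 2 tested genes on each side of Bgn and of the chromosome 13 group. Col1a1 was named after its values were seen.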

Additional observations from a re-analysis of the deposited data

Results flagged for a closer look

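Dcn and Prelp drew attention because the knockout lines lay on opposite sides of both controls in the deposited values. After the correction for GC content and length, Dcn in the exon 3 knockout (log2 level 0.40) was no longer below the vector control (0.39). For Dcn the exon 2 knockout exceeded the exon 3 knockout by 1.53 on the log2(RPKM + 1) scale, with 56 and 4 reads. For Prelp the exon 2 knockout differed from the exon 3 knockout by -2.79 on that scale, with 42 and 468 reads. Each knockout is 1 library, so the difference between the lines was not tested, and the exon edited, the line and the cell number in the titles cannot be told apart.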

How the results depend on the processing

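The count of genes called lower by limma, 2 as reported, was 1 with a pseudocount of 0.1, 1 with quantile normalization, 25 with a filter at a mean RPKM of 5 and 242 with a robust prior. That filter also called 7 genes higher and the robust prior 43, and some genes were called higher with 1 library left out. The count of lower calls was 0 with median ratio scaling, 0 with the GC content and length correction, 0 without a filter and 0 with limma voom on whole reads. In these settings 2171, 1403, 2132 and 2037 genes had an unadjusted p under 0.05. Leaving out 1 library gave 1 to 550 genes, with 335 without the vector control, 550 without the parental line and 3 without the exon 3 knockout, the lone library being assumed to vary like the other group. The median difference of the members was -0.46 after the GC content and length correction, against -1.03, and -1.36 to -0.71 with 1 library left out. The count of members lower in both knockouts was 2 after that correction, against 4. With 1 library left out it was 4 to 5, which is no check, since fewer libraries can only keep or raise this count. The summed RPKM of the knockouts over the controls was 0.214 with median ratio scaling and 0.226 with the correction, against 0.197, and 0.185 to 0.212 with 1 library left out.

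Bgn kept its direction in all 11 settings, from -5.11 to -3.44. Aspn did so in 10, from -4.98 with voom to -2.13 with the GC content and length correction. Leaving out 1 library could not reverse either gene, since every pair of a knockout and a control was negative for both. Changing only the pseudocount from 1 to 0.1 moved Aspn from -2.68 to -4.38, and the cause of the rest of the spread was not tested. Ogn ran from -1.23 to -0.48 and Omd from -1.48 to -0.43. Dcn turned negative at a pseudocount of 0.1 (-0.33), with voom (-0.54), without the vector control (-0.36) and without the exon 2 knockout (-0.76), and was 0.77 without the exon 3 knockout. Prelp turned negative with the GC content and length correction (-0.11), without the vector control (-0.44) and without the exon 3 knockout (-1.21), and was 1.58 without the exon 2 knockout. The filter at 5 leaves out Aspn and Dcn. No paired analysis was possible because the titles carry no replicate numbers and nothing links a knockout line to a control line. Members with few reads (Ecm2, Fmod, Dcn, and Aspn in the exon 2 knockout) are limited by depth.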

Other observations

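Optc (opticin), a class III relative of Ogn that lies 2305 bases from Prelp on the same strand of chromosome 1, had the same order of the 4 libraries as Prelp and was singled out after its values were seen. It was at 1.26 RPKM in parental cells, 0.517 in vector control cells, 1.78 in exon 3 knockout cells and 0.329 in exon 2 knockout cells, from 48, 16, 51 and 9 reads. That order rests on few reads. No interval was computed for exon 3 knockout over parental cells or for vector control over exon 2 knockout cells. The exon 3 knockout exceeded the exon 2 knockout 5.43-fold (95% exact interval 2.65 to 12.5, counting error only), and for Prelp the value was 10.7-fold. Its mean, 0.973 RPKM, was under the filter. Fmod, 115840 bases from Prelp on the other strand, had at most 11 reads in a library.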
